A study of Mus musculus with 3 samples.

Results

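The genes described here encode the chromodomain (Cbx), polyhomeotic (Phc) and Scmh1 subunits of canonical Polycomb repressive complex 1 (PRC1). The 8 members were taken by symbol, as Cbx2, Cbx6, Cbx7, Cbx8, Phc1, Phc2, Phc3 and Scmh1. Of these, 7 were listed under their own name among the 25350 genes that had a name of their own in all 3 RNA-seq files. Cbx6 was listed only within a locus joined with Nptxr and Npcd and is given apart.

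RNA-seq was available for 1 sample each of wild-type (WT) mouse embryonic stem (ES) cells, Pcgf1-/- ES cells and Pcgf1-/-+Pcgf1 ES cells. All 3 lines had the strain C57BL/6 and were grown in serum with leukemia inhibitory factor on mitomycin-C inactivated mouse embryonic fibroblasts (MEFs), so each sample could hold feeder RNA. The Pcgf1-/- cells (Pcgf1 KO in the labels) were made with Cas9 and a pair of sgRNAs and were picked as single colonies, so the line may be 1 clone. The Pcgf1-/-+Pcgf1 cells (Pcgf1KO+Pcgf1_flag) were Pcgf1-/- cells that had received FLAG-tagged Pcgf1 by lentiviral infection and had been selected with puromycin. With 1 sample per group no test between groups was possible, no difference has a replicate check, and line, clone and culture cannot be told apart from genotype.

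PRC1 is a ubiquitin ligase for histone H2A built around Ring1 or Rnf2 and a Pcgf protein. In canonical PRC1 the Pcgf protein is Pcgf2 or Bmi1, a Cbx protein binds trimethylated lysine 27 of histone H3 through its chromodomain, and a Phc protein joins complexes to each other through its SAM domain and helps to compact chromatin. In variant PRC1, which includes the Pcgf1 complex, Rybp or Yaf2 takes the place of the Cbx and Phc proteins. In ES cells Cbx7 is known as the main Cbx protein of canonical PRC1, and Cbx2 and Cbx8 are known to rise upon differentiation. The Pcgf1 complex is usually described without the members, and the comparisons below describe their RNA without Pcgf1 and after its re-expression.

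Several members have more than 1 annotated start, and the data differed between these starts, so the RefSeq promoters (build GRCm38.p6, which has the mm10 coordinates) are shown for Phc2 and Scmh1. Each window runs from 250 bases before to 50 bases after the annotated start on the plus strand of chromosome 4, with every CG dinucleotide in capitals. A promoter was found for 7 of the 8 members, and the CG count over 32851 mouse promoters of the same length had a median of 7. CG reads the same on either strand, and occurrences do not overlap.
Phc2 promoter with RNA, chr4:128727321-128727620: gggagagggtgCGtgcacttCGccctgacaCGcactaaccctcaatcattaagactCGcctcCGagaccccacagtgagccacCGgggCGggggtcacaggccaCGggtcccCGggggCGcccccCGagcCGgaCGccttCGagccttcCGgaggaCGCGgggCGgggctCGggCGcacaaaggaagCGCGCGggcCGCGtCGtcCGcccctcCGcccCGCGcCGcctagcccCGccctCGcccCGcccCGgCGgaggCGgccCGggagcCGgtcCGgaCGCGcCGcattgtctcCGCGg
Phc2 upstream promoter without RNA, chr4:128654452-128654751: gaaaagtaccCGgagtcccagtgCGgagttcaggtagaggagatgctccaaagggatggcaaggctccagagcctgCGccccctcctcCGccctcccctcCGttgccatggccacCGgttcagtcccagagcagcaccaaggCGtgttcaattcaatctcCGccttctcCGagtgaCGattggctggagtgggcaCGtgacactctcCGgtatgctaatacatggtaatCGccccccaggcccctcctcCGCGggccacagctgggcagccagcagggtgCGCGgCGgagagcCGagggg
Phc2 middle promoter without RNA, chr4:128688488-128688787: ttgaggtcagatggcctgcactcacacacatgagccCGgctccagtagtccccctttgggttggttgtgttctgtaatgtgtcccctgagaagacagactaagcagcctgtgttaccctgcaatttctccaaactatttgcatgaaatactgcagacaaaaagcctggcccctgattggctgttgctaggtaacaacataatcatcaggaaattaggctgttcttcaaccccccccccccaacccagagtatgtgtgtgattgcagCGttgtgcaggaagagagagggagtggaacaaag
Scmh1 promoter with RNA, chr4:120405098-120405397: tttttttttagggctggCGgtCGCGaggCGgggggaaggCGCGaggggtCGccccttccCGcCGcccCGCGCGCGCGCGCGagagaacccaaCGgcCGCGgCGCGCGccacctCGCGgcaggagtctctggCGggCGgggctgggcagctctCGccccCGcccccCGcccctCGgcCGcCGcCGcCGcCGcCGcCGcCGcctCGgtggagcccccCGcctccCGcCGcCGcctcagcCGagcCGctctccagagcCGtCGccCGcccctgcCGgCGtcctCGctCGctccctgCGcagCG
Scmh1 downstream promoter without RNA, chr4:120452994-120453293: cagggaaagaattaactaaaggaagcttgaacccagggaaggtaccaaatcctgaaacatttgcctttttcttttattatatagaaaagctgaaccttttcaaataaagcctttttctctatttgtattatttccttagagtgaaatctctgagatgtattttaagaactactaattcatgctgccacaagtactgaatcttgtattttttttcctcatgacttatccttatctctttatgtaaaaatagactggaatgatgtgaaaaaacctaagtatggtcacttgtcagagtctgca

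The Phc2 window in which the RNA began held 45 CG, a count that 1.93% of all promoters reached or passed. The Phc2 windows with no RNA held 19 and 2 CG, counts reached by 28.1% and 85.9% of promoters. The Scmh1 window with RNA held 54 CG, reached by 0.347% of promoters, and the Scmh1 window without RNA held 0. For both genes, among the windows shown, the one with the most CG carried RNA in all 3 samples. The other Scmh1 first exons with RNA lie in no window, and their CG content was not looked at.

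The sequence of an alternative coding exon of Phc1 is also shown, since the exon splits the Phc1 RNA into a pair of forms. It lies on the minus strand of chromosome 6 (chr6:122332522-122332677) and was read from the GENCODE vM21 transcript Phc1-201. It has 156 bases, which is 52 codons, and was present in only some of the Phc1 RNA in every sample. Capitals mark the 24 bases that are absent from a shorter form of the exon, which was listed at 0 FPKM in all 3 samples.
Phc1 alternative exon: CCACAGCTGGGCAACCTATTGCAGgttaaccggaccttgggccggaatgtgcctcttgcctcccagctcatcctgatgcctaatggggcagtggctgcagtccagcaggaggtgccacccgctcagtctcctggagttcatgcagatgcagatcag

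Values are FPKM, a count of fragments scaled for transcript length and for library size. FPKM was summed over the first-exon rows and over the last-exon rows of a gene, and the larger sum was taken as its level. Differences are log2 ratios of FPKM plus 0.1, and a gene was called higher or lower when this ratio passed 2-fold, without a test.

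Phc1 (chr6:122317731-122340561 on mm10, minus strand), the polyhomeotic subunit with the most RNA in these cells, was the only member past 2-fold between Pcgf1-/- and WT. Its level was 197 FPKM in WT, 94.4 FPKM in Pcgf1-/- and 161 FPKM in Pcgf1-/-+Pcgf1. The Pcgf1-/- sample was thus the low one, with the other two closer to each other. Against WT the log2 ratio in Pcgf1-/- was -1.06 (0.479 times), that of Pcgf1-/-+Pcgf1 to Pcgf1-/- was 0.77 and that of Pcgf1-/-+Pcgf1 to WT was -0.29. By level, Phc1 held rank 273 of 25350 genes in WT, against ranks 611 and 307 in the Pcgf1-/- and Pcgf1-/-+Pcgf1 samples.

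The other Phc genes did not follow Phc1. Phc2 (chr4:128654702-128752881, plus strand), also a SAM domain subunit, had 12.9 FPKM in WT, 19.9 FPKM in Pcgf1-/- and 13.0 FPKM in Pcgf1-/-+Pcgf1. Here the Pcgf1-/- sample was the high one, and the samples with Pcgf1 differed by a log2 ratio of 0.00. The log2 ratios of 0.62 for Pcgf1-/- to WT and -0.62 for Pcgf1-/-+Pcgf1 to Pcgf1-/- stayed within 2-fold. Phc3 (chr3:30899371-30969415, minus strand), the least abundant paralog, lay at 1.04, 1.05 and 0.963 FPKM in the same order, with log2 ratios between -0.12 and 0.02.

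The make-up of the Phc family shifted with these values. The summed level of the 3 Phc genes was 211 FPKM in WT, 115 FPKM in Pcgf1-/- and 175 FPKM in Pcgf1-/-+Pcgf1. Phc1 made up 93.4% of the WT sum, 81.8% of the Pcgf1-/- sum and 92.0% of the Pcgf1-/-+Pcgf1 sum. The share of Phc2 was 17.2% in Pcgf1-/-, against 6.12% and 7.40% in the WT and Pcgf1-/-+Pcgf1 samples. Phc1 thus remained the most abundant Phc RNA in each sample.

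Cbx7 (chr15:79915807-79971119, minus strand), the chromodomain subunit with the most RNA, had 71.4 FPKM in WT, 51.9 FPKM in Pcgf1-/- and 57.0 FPKM in Pcgf1-/-+Pcgf1. Both lines derived from the knockout lay below WT, and the log2 ratios were -0.46 for Pcgf1-/- to WT, 0.13 for Pcgf1-/-+Pcgf1 to Pcgf1-/- and -0.33 for Pcgf1-/-+Pcgf1 to WT. With last exons alone the Cbx7 levels were 26.5, 25.9 and 24.7 FPKM and the Pcgf1-/- sample differed from WT by a log2 ratio of -0.04.

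Cbx2 (chr11:119022962-119031270, plus strand), a chromodomain subunit that can also compact chromatin, had 12.4 FPKM in WT, 10.8 FPKM in Pcgf1-/- and 14.3 FPKM in Pcgf1-/-+Pcgf1. Its log2 ratios of -0.20, 0.41 and 0.21 in the order above stayed within 2-fold. Cbx2 and Phc2 were close in WT and in Pcgf1-/-+Pcgf1 and exchanged places there, since Phc2 was the higher in WT and Cbx2 the higher in Pcgf1-/-+Pcgf1. The order of levels in WT was Phc1, Cbx7, Phc2, Cbx2, Scmh1, Phc3 and Cbx8, and without replicates no neighbours in it can be tested for a difference.

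Cbx8 (chr11:119036305-119040969, minus strand), a further chromodomain subunit, had the lowest level of the members, at 0.702 FPKM in WT, 0.945 FPKM in Pcgf1-/- and 0.270 FPKM in Pcgf1-/-+Pcgf1. The Pcgf1-/-+Pcgf1 sample was the low one. Its log2 ratio of -1.50 to Pcgf1-/- and of -1.12 to WT passed 2-fold, while that of Pcgf1-/- to WT was 0.38. Every Cbx8 value lay under 1 FPKM, and with a pseudocount of 1 FPKM both calls were lost, at -0.62 and -0.42.

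Scmh1 (chr4:120405281-120530186, plus strand), a relative of Sex comb on midleg with MBT repeats and a SAM domain, had 8.78 FPKM in WT, 6.42 FPKM in Pcgf1-/- and 9.67 FPKM in Pcgf1-/-+Pcgf1. Its log2 ratios were -0.45 for Pcgf1-/- to WT, 0.58 for Pcgf1-/-+Pcgf1 to Pcgf1-/- and 0.14 for Pcgf1-/-+Pcgf1 to WT. The Pcgf1-/- sample was the lowest, within 2-fold of the others. No last exon of Scmh1 was listed above 0 in any sample, so its levels rest on first exons alone.

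For Cbx6 the joined locus with Nptxr, a neuronal pentraxin receptor gene, and Npcd held 11.1, 12.9 and 10.5 FPKM in WT, Pcgf1-/- and Pcgf1-/-+Pcgf1. The last exon that belongs to Cbx6 itself (chr15:79823896-79828978, minus strand) had 8.79 FPKM in WT, 9.14 FPKM in Pcgf1-/- and 7.17 FPKM in Pcgf1-/-+Pcgf1. These levels gave log2 ratios of 0.06, -0.35 and -0.29. A start inside Nptxr (splice site at 79803975) added 2.32, 3.74 and 1.34 FPKM to the locus. A further start at 79828688, which no vM21 transcript has, was listed in Pcgf1-/-+Pcgf1 alone, at 2.02 FPKM. The first exon used by Cbx6 (chr15:79834143-79834237) is shared with Npcd.

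**Figure D1:**
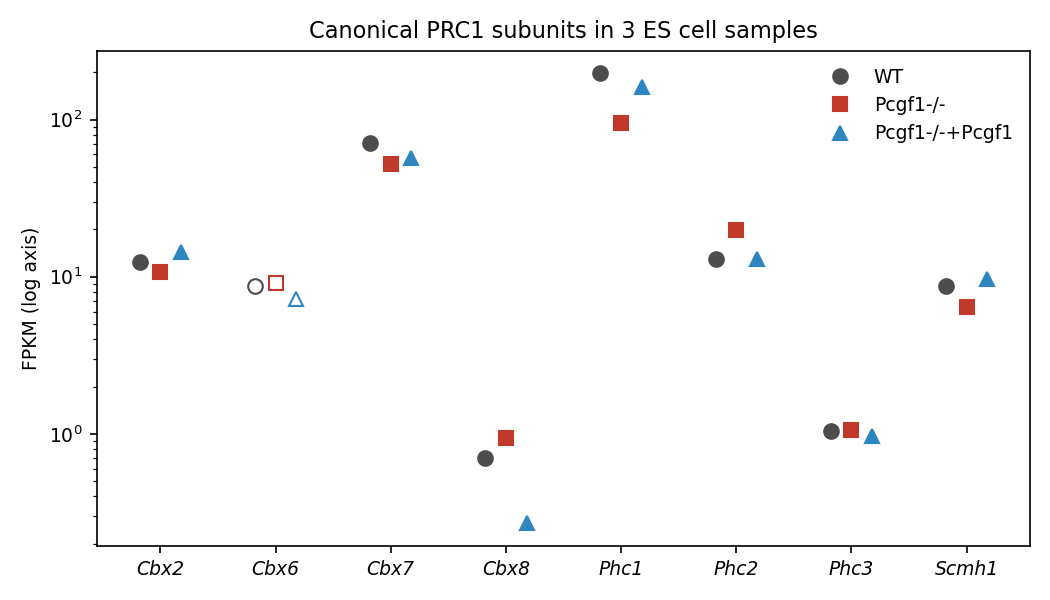
Level of each member in FPKM on a log axis, 1 point per sample (circles WT, squares Pcgf1-/-, triangles Pcgf1-/-+Pcgf1), with no error bars because each group is 1 sample. The open symbols for Cbx6 are the level of its own last exon, and Phc1 lies at 94.4 FPKM in Pcgf1-/- against 197 FPKM in WT.

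Within the Cbx family, counting Cbx6 by its own last exon, the summed level was 93.3 FPKM in WT, 72.8 FPKM in Pcgf1-/- and 78.7 FPKM in Pcgf1-/-+Pcgf1. Cbx7 made up 76.6%, 71.3% and 72.4% of it. These shares count Cbx7 by its first exons, and by last exons it had only 26.5, 25.9 and 24.7 FPKM. Its share, and the lower share in Pcgf1-/-, thus depend on the measure. Cbx2 made up 13.3%, 14.8% and 18.2%, and Cbx8 at most 1.30%. In each sample Cbx7 and Phc1 thus gave most of the RNA of their families.

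**Figure D2:**
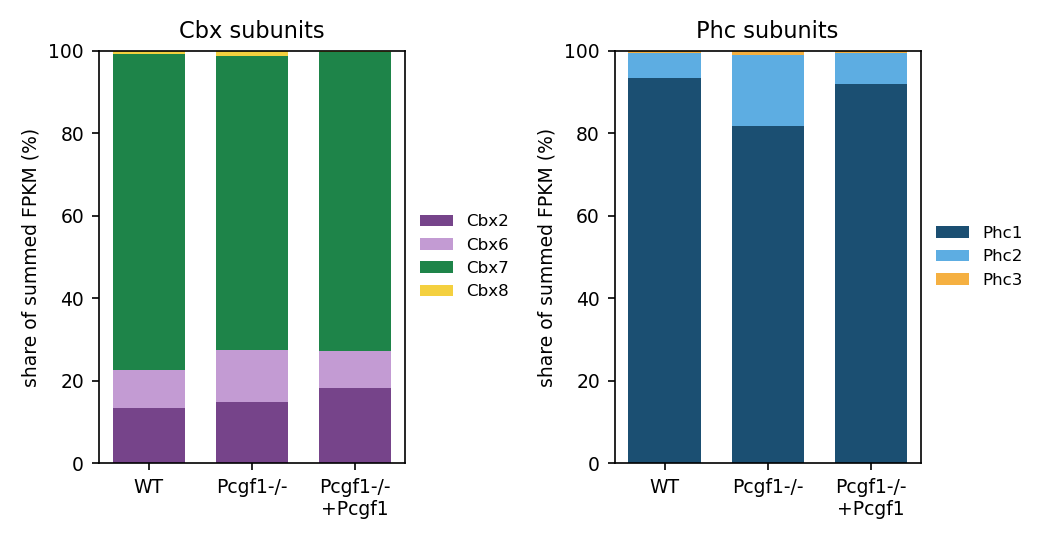
Share in percent of each gene in the summed FPKM of the Cbx family (left) and of the Phc family (right), 1 stacked bar per sample. Phc2 takes 17.2% of the Phc sum in Pcgf1-/- and 6.12% in WT, while Cbx7 takes between 71.3% and 76.6% of the Cbx sum. Cbx7 is counted by its first exons, where its level is higher than by last exons, and Cbx6 by its own last exon.

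Between Pcgf1-/- and WT, 1 of 7 members was lower (Phc1) and 0 were higher, where 4.98% of all 25350 genes were lower and 2.16% higher. Between Pcgf1-/-+Pcgf1 and Pcgf1-/-, 1 of 7 was lower (Cbx8) and 0 were higher, against 2.22% and 6.35% of all genes. Between Pcgf1-/-+Pcgf1 and WT, 1 of 7 was lower (again Cbx8) and 0 were higher, against 2.36% and 3.99%. The comparisons share samples, so these counts are not separate evidence.

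The median log2 ratio over the 7 members was -0.20 for Pcgf1-/- to WT, 0.13 for Pcgf1-/-+Pcgf1 to Pcgf1-/- and -0.09 for Pcgf1-/-+Pcgf1 to WT. Over all genes with at least 1 FPKM it was -0.09 (9438 genes), -0.01 (9565 genes) and -0.11 (9620 genes). Of 1408 genes with at least 50 FPKM in WT or Pcgf1-/-, a floor chosen after seeing the data, 26 were lower in Pcgf1-/-, which is 1.85%. Phc1 is itself among these 26, and 6 of them were listed at 0 there.

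The call of Phc1 lay close to the limit. When the samples were scaled by the median of ratios over 8623 genes, the log2 ratio for Pcgf1-/- to WT came to -0.98, within 2-fold, and over all settings its range was -1.06 to -0.98.

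**Figure D3:**
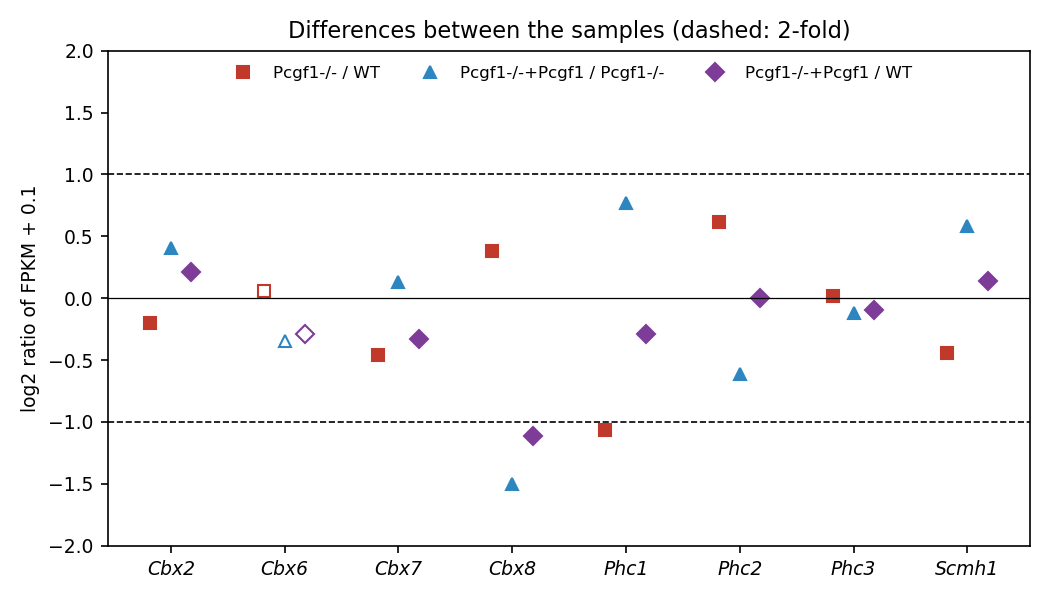
Log2 ratio of FPKM plus 0.1 for each member in the 3 comparisons (squares Pcgf1-/- to WT, triangles Pcgf1-/-+Pcgf1 to Pcgf1-/-, diamonds Pcgf1-/-+Pcgf1 to WT), with dashed lines at 2-fold and open symbols for the last exon of Cbx6. The points past a dashed line are Phc1 in Pcgf1-/- to WT at -1.06 and Cbx8 in the other two comparisons at -1.50 and -1.12.

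Some markers of feeder fibroblasts were also lower in the comparison in which Phc1 was called. Of 24 markers 20 were measured, and their summed level was 197 FPKM in WT, 135 FPKM in Pcgf1-/- and 146 FPKM in Pcgf1-/-+Pcgf1. Fn1 alone held 110, 75.7 and 74.9 FPKM of these sums. In Pcgf1-/- against WT 6 of the 20 were lower and 0 higher, where 4.98% of all genes were lower and 2.16% higher. Among the 6 were the collagen gene Col1a1 (1.88 and 0.390 FPKM in WT and Pcgf1-/-), Col6a1 (1.02 and 0.404), Thy1 (14.2 and 6.39) and the collagenase gene Mmp2 (14.9 and 7.12). The median log2 ratio over the 20 was -0.51, while Dcn and Twist1 were higher in Pcgf1-/- within 2-fold, at 0.96 and 0.59. In Pcgf1-/-+Pcgf1 against Pcgf1-/- 5 were higher (Col1a1, Col1a2, Col6a1, Thy1 and Fbln2) and 1 was lower (Twist1). The shares of all genes there were 6.35% and 2.22%. In Pcgf1-/-+Pcgf1 against WT 1 was higher (Dcn) and 2 were lower (Col1a2 and Twist1), where the shares were 3.99% and 2.36%. Postn was listed at 0 in every sample and Lum and Prrx1 at 0 in Pcgf1-/-. Whether feeder RNA had a part in the member values was not tested, and fewer cells of a type and less RNA per cell cannot be told apart in bulk samples.

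Of 12 ES cell markers 10 were measured, none at 0. Pou5f1, a defining marker of ES cells, stood at 670, 518 and 626 FPKM in WT, Pcgf1-/- and Pcgf1-/-+Pcgf1. Nanog was higher in Pcgf1-/-+Pcgf1 than in Pcgf1-/- (123 and 46.3 FPKM), and Tbx3 was higher in Pcgf1-/- than in WT (1.43 and 0.233 FPKM) and higher again in Pcgf1-/-+Pcgf1 (3.61 FPKM). The targeted gene Pcgf1 had 14.0 FPKM in WT, 5.88 FPKM in Pcgf1-/- and 7.86 FPKM in Pcgf1-/-+Pcgf1, and in Pcgf1-/- its RNA was listed wholly as a form that skips exons 2 and 3. The log2 ratio of Pcgf1-/-+Pcgf1 to Pcgf1-/- was 0.41, within 2-fold. That skip was not listed in Pcgf1-/-+Pcgf1, so its values do not show how much of the Pcgf1 RNA there was intact.

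Phc1 RNA began at 2 of 8 listed first exons. The first exon ending at splice site 122339598 on chromosome 6 had 129 FPKM in WT, 67.9 FPKM in Pcgf1-/- and 109 FPKM in Pcgf1-/-+Pcgf1. A first exon with the neighbouring splice site 122339502, which no vM21 transcript has, had 68.1, 26.5 and 51.7 FPKM. Both were lowest in Pcgf1-/-, so the lower level of Phc1 was spread over both starts. The first exon that holds the RefSeq start of Phc1 (chr6:122340197-122340506) was listed at 0 in all samples.

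The alternative Phc1 exon printed above was included at 141 FPKM and skipped at 56.3 FPKM in WT. In Pcgf1-/- these levels were 63.3 and 31.2 FPKM, and in Pcgf1-/-+Pcgf1 120 and 41.1 FPKM. The included share was 67.0% in Pcgf1-/-, against 71.4% and 74.5% in the WT and Pcgf1-/-+Pcgf1 samples, so the form with the exon was the more abundant in each sample. In vM21 the reading frame has 1010 codons with this exon and 958 without it (Phc1-201 and Phc1-202).

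All Phc2 RNA in the 3 samples came from the first exon chr4:128727581-128727870, which starts inside the CG-rich window printed above, and the other 5 listed first exons were at 0. In vM21 the longest reading frame of transcripts with this first exon is 323 codons (Phc2-202), against 850 codons from the upstream starts (Phc2-201 and Phc2-203). The Phc2 values above are thus values of this start alone.

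Scmh1 RNA was split over 3 of 7 listed first exons. The first exon in the CG-rich window had 4.40, 4.51 and 2.87 FPKM in WT, Pcgf1-/- and Pcgf1-/-+Pcgf1, and the first exon chr4:120462080-120462155 had 2.41, 1.91 and 2.71 FPKM. The first exon in the CG-rich window begins 5 vM21 transcripts, of which 2 are coding. The start chr4:120517626-120517706, which begins only non-coding transcripts in vM21 (Scmh1-210 and Scmh1-212), had 1.97 FPKM in WT, 0 in Pcgf1-/- and 4.09 FPKM in Pcgf1-/-+Pcgf1. Without it Scmh1 stood at 6.81, 6.42 and 5.59 FPKM, with log2 ratios of -0.08, -0.20 and -0.28, and Pcgf1-/-+Pcgf1 was the lowest sample. The lower value of Scmh1 in Pcgf1-/- than in WT thus lay for the most part in the start that begins only non-coding transcripts.

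Cbx7 RNA began at splice site 79932448 on chromosome 15 with 39.1 FPKM in WT, 25.9 FPKM in Pcgf1-/- and 32.3 FPKM in Pcgf1-/-+Pcgf1. The start at 79933765 had 32.3, 26.1 and 0 FPKM, and the start at 79970869 had 0, 0 and 24.7 FPKM. The last of these lies farthest upstream and was listed above 0 only in the Pcgf1-/-+Pcgf1 sample. The rest of the Cbx7 RNA was thus assigned to a different start in that sample than in the other two.

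Cbx7 also had an inner exon of 73 bases at 58.9, 51.9 and 44.7 FPKM. Its longer form of 352 bases had 12.6 FPKM in WT, 0 in Pcgf1-/- and 12.3 FPKM in Pcgf1-/-+Pcgf1. Cbx7 overlaps Apobec3 on the other strand by 100 bases, and reads of the overlap cannot be told apart because the library kit does not mark strand.

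Cbx8 RNA had 1 start and 2 forms. The form with the inner exons at chr11:119040094-119040391, which in vM21 is the coding transcript Cbx8-201, had 0.237 FPKM in WT, 0.280 FPKM in Pcgf1-/- and 0.270 FPKM in Pcgf1-/-+Pcgf1. The form without them, which in vM21 is found only in non-coding transcripts, had 0.465, 0.665 and 0 FPKM. The log2 ratio of the coding form was -0.04 for Pcgf1-/-+Pcgf1 to Pcgf1-/- and 0.13 to WT, so nearly all of the Cbx8 difference between Pcgf1-/-+Pcgf1 and Pcgf1-/- lay in the other form, and against WT the coding form was not lower.

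Phc3 RNA began at splice site 30969359 on chromosome 3 in WT (1.04 FPKM) and at the nearby site 30969374 in Pcgf1-/- and Pcgf1-/-+Pcgf1 (0.847 and 0.963 FPKM). A further start at 30936711 was listed in Pcgf1-/- alone, at 0.205 FPKM. Both listed Phc3 last exons were at 0 in all samples. Cbx2 RNA came wholly from the first exon chr11:119022962-119023180, and Cbx8 lies 5.03 kb from Cbx2.

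**Figure D4:**
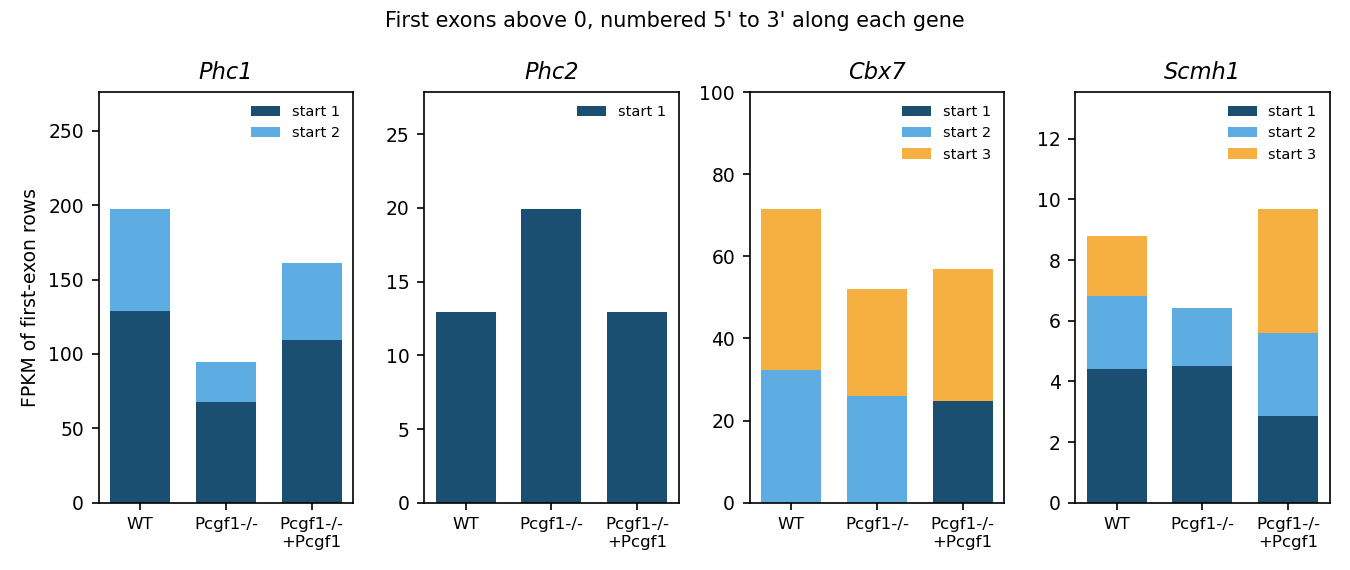
FPKM of each first exon above 0 for Phc1, Phc2, Cbx7 and Scmh1, stacked, 1 bar per sample, with starts numbered from upstream to downstream and a separate FPKM axis for each gene. Start 1 of Cbx7 appears only in Pcgf1-/-+Pcgf1 (24.7 FPKM), and start 3 of Scmh1 is missing in Pcgf1-/-.

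Among the partners of the members in canonical PRC1, 6 of 7 were measured. Between Pcgf1-/- and WT 0 of these were called, where 4.98% of all genes were lower and 2.16% higher. Ring1, a catalytic subunit, had 3.29, 3.27 and 3.29 FPKM in WT, Pcgf1-/- and Pcgf1-/-+Pcgf1. Its paralog Rnf2 had 36.9 FPKM in WT and 39.4 FPKM in Pcgf1-/-, and lay in a locus joined with another gene at 28.3 FPKM in Pcgf1-/-+Pcgf1. Pcgf2 had 45.9, 51.6 and 40.3 FPKM and Bmi1 0.602, 0.761 and 0.669 FPKM. In each comparison with Pcgf1-/-+Pcgf1, 1 of the 6 partners was higher, which was Scml4 at a level under 1 FPKM. Of all genes 6.35% were higher against Pcgf1-/- and 3.99% against WT.

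Of 26 variant PRC1 genes 21 were measured. Pcgf1 itself was the only one called between Pcgf1-/- and WT, as lower, where 4.98% of all genes were lower. Rybp, which takes the place of Cbx in variant PRC1, was lower in Pcgf1-/-+Pcgf1 (30.3, 40.3 and 12.6 FPKM in the order above), at a log2 ratio of -1.67 to Pcgf1-/- and -1.25 to WT. Bcor, a corepressor in the Pcgf1 complex, had 4.06, 5.33 and 9.49 FPKM and was higher in Pcgf1-/-+Pcgf1 than in WT, at 1.20.

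Of 13 PRC2 genes 11 were measured with 0 called in any comparison. Over all genes the share called in each direction was between 2.16% and 6.35%. Rbbp4 came close to the limit, with 86.0 FPKM in WT and 164 FPKM in Pcgf1-/- (log2 ratio 0.93), while the median over the 11 was 0.13. The heterochromatin protein genes Cbx1, Cbx3 and Cbx5, which share the chromodomain with the members, were also not called in any comparison. Among 8 measured relatives of Scmh1 with MBT or SAM domains, Sfmbt2 had 5.33 FPKM in WT, 23.0 FPKM in Pcgf1-/- and 5.76 FPKM in Pcgf1-/-+Pcgf1. This gave log2 ratios of 2.09 and -1.98, past 2-fold both times, and the other 7 relatives were not called in any comparison.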

How the data were processed

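The values of all 3 samples are FPKM, which the authors deposited per exon event of each locus (first exons, last exons, skipped exons, retained introns) on mm10. The submitters' processing notes name TopHat2 2.0.12, Cufflinks 2.2.1 and HTSeq 0.6.0, and the program that wrote the lists is not given in the sources used here. No counts were in the files, so the depth is unknown, no count test was run, and no interval is given. Rows at 0 FPKM made up 62.0% to 63.6% of each list.

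A gene's value was the larger of 2 sums, over its first-exon rows or over its last-exon rows, for names listed alone in all 3 files. A pseudocount of 0.1 FPKM was added and a gene was called past 2-fold. Event rows of 1 transcript carry its FPKM, so forms of a gene are not independent measurements. Starts and exons were matched by coordinates to GENCODE vM21, where 45 of 48 listed first and last exons of members had an annotated splice site. The calling script was checked on simulated data with large planted differences and no noise. That check covers its arithmetic and says nothing about calls near 2-fold or at low levels.

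The members and lists were chosen with earlier results of these data known. The text names the 8 members, Pcgf1, Ring1, Rnf2, Pcgf2 and Bmi1 (1 further partner is not reported here), and of the other lists genes past 2-fold with at least 1 FPKM in a compared sample. Scml4, Rbbp4, Col1a2, Pou5f1, Fn1, Postn, Lum, Prrx1, Cbx1, Cbx3, Cbx5 and the neighbours of Phc1 were named after their values were seen. Alternatives were other pseudocounts, first or last exons alone, median-of-ratios scaling, a floor on level and a limit of 1.5-fold. They were applied to the members and to counts over all genes, not to the gene lists. Python 3.11.15 with numpy 2.4.6, pandas 2.3.3 and matplotlib 3.10.9 was used.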

Additional observations from a re-analysis of the deposited data

How the results depend on the processing

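No paired analysis was possible because each group has 1 sample, and for the same reason no replicate could be left out. Counts over all genes moved with the settings. They are given in the order of Pcgf1-/- to WT higher and lower, Pcgf1-/-+Pcgf1 to Pcgf1-/- higher and lower, and Pcgf1-/-+Pcgf1 to WT higher and lower. They were 547, 1263, 1610, 563, 1011 and 597 as reported. With a pseudocount of 0.01 FPKM they were 1058, 2209, 2683, 973, 1857 and 1145. With a pseudocount of 1 FPKM they were 160, 294, 370, 215, 190 and 139, and the share of lower calls between Pcgf1-/-+Pcgf1 and Pcgf1-/- was 36.8% in place of 25.9%. Among genes with at least 1 FPKM they were 281, 577, 692, 344, 369 and 255. Past 1.5-fold they were 1269, 2594, 2836, 1380, 1881 and 1622. Among genes with at least 50 FPKM, a floor chosen after seeing the data, 19 were higher and 26 lower in Pcgf1-/- than in WT. At the same floor 24 were higher and 34 lower in Pcgf1-/-+Pcgf1 than in Pcgf1-/- (58.6% lower, against 25.9% of calls over all genes), and 13 were higher and 25 lower than in WT (65.8% against 37.1%).

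Among the members, Phc1 left the call under median-of-ratios scaling (-0.98), which left 0 members lower between Pcgf1-/- and WT. Cbx8 left both calls with a pseudocount of 1 FPKM (-0.62 to Pcgf1-/- and -0.42 to WT), under the floor of 1 FPKM, and when its coding form alone was counted, an alternative added after seeing the data (-0.04 to Pcgf1-/-, and 0.13 to WT, a turn of direction), so that 0 members were lower in those comparisons. Past 1.5-fold, 1 member was higher between Pcgf1-/- and WT (Phc2), and between Pcgf1-/-+Pcgf1 and Pcgf1-/- 1 was higher (Phc1) and 2 were lower (Cbx8 and Phc2). The other 121 log2 ratios of members kept their side of 2-fold, but 48 of them equalled the reported value by construction (first exons alone, members whose sums were equal, members whose forms were not altered) and 6 were 0 for want of last-exon RNA. Of the 67 that moved, 4 changed sign. Without the start that begins only non-coding transcripts, Scmh1 turned from 0.58 to -0.20 for Pcgf1-/-+Pcgf1 to Pcgf1-/- and from 0.14 to -0.28 for Pcgf1-/-+Pcgf1 to WT. The starts that were kept can still hold RNA of non-coding transcripts. Cbx7 turned from 0.13 to -0.07 for Pcgf1-/-+Pcgf1 to Pcgf1-/- with last exons alone, and Phc3 from -0.09 to 0.01 for Pcgf1-/-+Pcgf1 to WT under median-of-ratios scaling.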

Other observations

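The genes around Phc1 were looked at after their values had been seen. Within 500 kb of Phc1 on chromosome 6, 7 other genes listed under their own name had at least 1 FPKM in a sample, and 2 of them were past 2-fold lower in Pcgf1-/- than in WT. Dppa3, a maternal factor that protects DNA methylation in the zygote, had 38.3 FPKM in WT, 17.5 FPKM in Pcgf1-/- and 60.1 FPKM in Pcgf1-/-+Pcgf1, with log2 ratios of -1.13 for Pcgf1-/- to WT and 1.78 for Pcgf1-/-+Pcgf1 to Pcgf1-/-. Apobec1, a cytidine deaminase of RNA editing, had 2.65, 1.02 and 1.26 FPKM, with -1.29 and 0.28. Nanog, a pluripotency factor in the same window, had 68.2, 46.3 and 123 FPKM, with -0.56 and 1.41.

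The gene closest to Phc1 did not share this order of samples. M6pr, a mannose 6-phosphate receptor gene that ends 50 bases from the end of Phc1 on the other strand, had 53.3, 58.7 and 53.4 FPKM, with log2 ratios of 0.14 and -0.14. Rimklb, the next gene beyond the start of Phc1, had 16.8, 18.9 and 20.0 FPKM, with 0.17 and 0.08. Other genes of the window may lie in joined loci, which were not counted.

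Kdm2b, the subunit that brings the Pcgf1 complex to CG-rich promoters, was listed only in a joined locus, at 22.1 FPKM in WT, 19.0 FPKM in Pcgf1-/- and 21.1 FPKM in Pcgf1-/-+Pcgf1.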
